A study of Caenorhabditis elegans with 4 samples.

Results

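The TRIM-NHL family of C. elegans was represented by 5 genes chosen by name, lin-41, nhl-1, nhl-2, nhl-3 and ncl-1, which were found by their WormBase gene identifiers among the 20392 genes of the deposited tables. All 5 had counts in every library and passed the filter on low counts, as did 14029 genes in total. The data come from RNA immunoprecipitation followed by sequencing (RIP-seq), in which the RNA recovered with a protein (IP) is compared with the RNA of the lysate (input). There were 2 IP and 2 input libraries, each IP being paired with the input of the same biological replicate, and the replicates were grown in different weeks. Every library, IP and input alike, came from whole young adult worms of 1 strain. These worms carried the allele lin-41(rrr3) on chromosome I and the single-copy rescuing transgene rrrSi367 on chromosome II, in which the lin-41 promoter drives LIN-41 with an N-terminal FLAG-GFP-TEV tag, followed by the full-length lin-41 3′-UTR, with unc-119(+) as the marker. The tagged protein (CeLIN41) was recovered with beads against FLAG. Libraries from a mock IP or from worms without the tag were not analysed here, so RNA retained by the beads or the tag cannot be told apart from RNA bound to CeLIN41.

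The name TRIM-NHL refers to a tripartite motif, made of a RING finger, B-boxes and a coiled coil, and to NHL repeats. These repeats form a propeller at the C terminus, and in several members this propeller binds RNA. In larvae, lin-41 is repressed by the let-7 miRNA, which lets somatic cells adopt adult fates, and in the germline LIN-41 acts in oocyte growth and meiotic maturation. NHL-2 is a cofactor of the miRNA-induced silencing complex and acts in germline small RNA pathways. NCL-1, the relative of Drosophila Brat, restrains nucleolar size and the level of fibrillarin. NHL-1 is a RING protein that interacts with ubiquitin-conjugating enzymes. The comparison of IP with input asks which of these mRNAs were recovered with CeLIN41. For lin-41 it has an added limit, because a count for this gene sums reads from the endogenous mutant locus and from the tagged transgene. These sources cannot be told apart in a table of counts per gene. A further limit is that, of these mRNAs, only that of lin-41 encodes the FLAG tag. Its recovery through tagged protein still being made on it cannot be told apart from binding by CeLIN41.

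Library totals ranged from 39432325 to 40743247 counts in the IPs and from 33455857 to 38891261 in the inputs. Markers of the tissues of a young adult worm were detected in all libraries. The 3 oocyte markers (oma-1, rme-2, puf-5) summed to between 2330 and 2402 CPM (counts scaled to a common library size with the TMM factors of edgeR) in the IPs, compared with 1199 to 1361 in the inputs. For the 3 intestine markers (vit-2, elt-2, ges-1) the sums were 643 to 804 CPM in the IPs and 1221 to 1605 in the inputs. Sums for muscle (unc-54, myo-3) were 188 to 196 CPM in the IPs and 143 to 189 in the inputs, those for neurons (rab-3, snb-1) 204 to 206 in the IPs and 169 to 177 in the inputs, and those for hypodermis (col-19, dpy-7) 720 to 728 in the IPs and 561 to 670 in the inputs. None of the 12 markers was at 0. The sums are led by their most abundant gene. Within the muscle markers unc-54 was at a log2 fold change of 0.32 and myo-3 at -0.83. Within the neuron markers rab-3 was at 2.49 and snb-1 at 0.04. The direction for these tissues depended on the scaling. By the quantile-normalized IP enrichment described below, unc-54 was at -0.46, myo-3 at -0.83, snb-1 at -0.75, col-19 at -0.53 and dpy-7 at -0.13. On that measure rab-3 was at 2.47.

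Within the family, lin-41 mRNA was strongly enriched in the IP, whereas none of its paralogs exceeded the 2.08-fold of ncl-1 in replicate 1 on the TMM scale. The mRNAs of nhl-2 and ncl-1 were modestly enriched on the TMM scale but not when only library size was used. The nhl-3 mRNA did not pass the test, and nhl-1 was depleted. By the quantile-normalized mean IP enrichment described below, nhl-2 was at 0.10, ncl-1 at 0.20 and nhl-3 at 0.29. By the quasi-likelihood test of edgeR, blocked on the replicate (Benjamini-Hochberg adjustment over the 14029 genes, threshold 0.05), 3 of the 5 mRNAs were enriched, where 32.9% of all tested genes were, and 1 was depleted, where 35.4% were. A count of 5 genes cannot be set apart from these shares. By size, 99.6% of the tested genes had a lower mean IP enrichment than lin-41. With 2 replicates and a block, the test has 1 residual degree of freedom and pools the spread over all genes, so its adjusted p-values rest on a spread shared between genes.

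**Figure D1:**
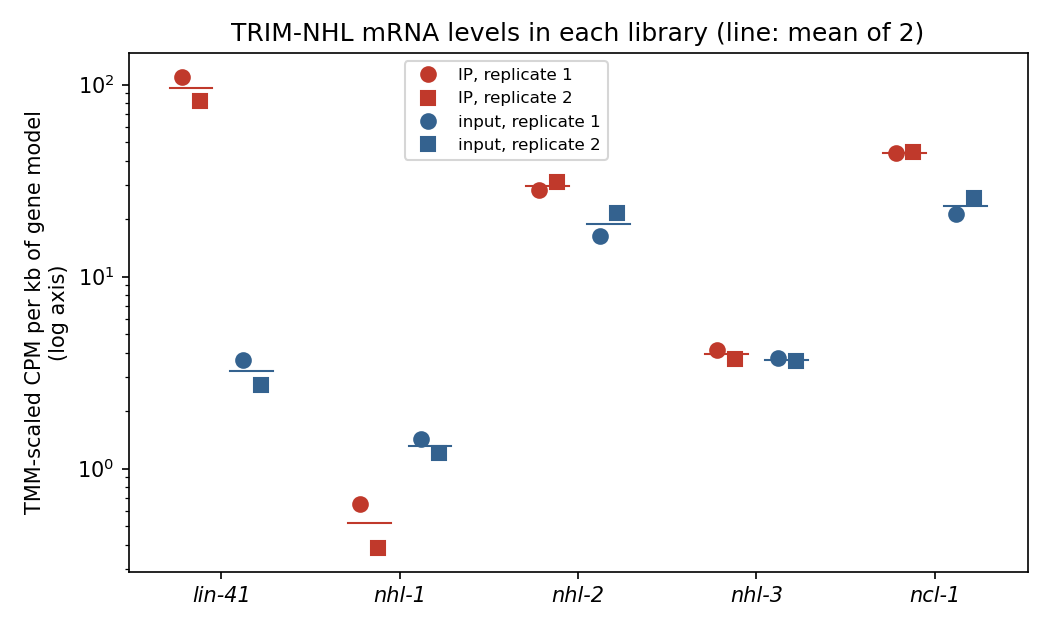
Level of each TRIM-NHL mRNA in each library, as TMM-scaled CPM per kb of gene model (log axis), with IP in red left of input in blue, circles for replicate 1, squares for replicate 2 and a line at the mean of 2. The lin-41 points lie at 110 and 81.8 in the IPs, far above its inputs at 3.70 and 2.72, and nhl-1 is the mRNA with both IPs below both inputs.

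The lin-41 gene (WBGene00003026, chromosome I) had 12953 (replicate 1) and 8588 (replicate 2) counts in the IPs, against 677 and 543 counts in the inputs. On the TMM scale these are 422 and 314 CPM in the IPs and 14.2 and 10.4 CPM in the inputs. Both IPs exceeded both inputs many times over, and the groups did not overlap. IP enrichment was computed as in the Methods of the study, as the difference between IP and input of the same replicate after library size scaling, addition of a pseudocount of 8, log2 transformation and quantile normalization. For lin-41 it was 4.45 and 4.49, with a mean of 4.47 ± 0.022 (SD, n = 2), at rank 56 of the 14029 tested genes. In edgeR its log2 fold change was 4.90, with a standard error of 0.13 and an adjusted p of 6.89e-277, at rank 73. All 10 alternative fits called lin-41 enriched, with a log2 fold change between 3.97 and 5.14 and a largest adjusted p of 3.92e-12.

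The 2 replicates differed more in their lin-41 level than in its enrichment. As a share of all counts of a library, lin-41 in replicate 2 was at 0.642 times its share in replicate 1 in the IP and at 0.690 times in the input. The IP and the input were thus both lower in the same replicate, and the enrichments differed by 0.031 log2 units, compared with a median difference of 0.20 over the tested genes. Input shares in replicate 2 relative to replicate 1 were 1.05 to 1.07 times for the 3 oocyte markers. They differed within the intestine list (vit-2 0.713, elt-2 1.03 and ges-1 0.382 times) and were 0.706 times for unc-54 and 0.742 times for myo-3. The hypodermis markers also differed (col-19 0.785 and dpy-7 1.01 times). Neuron markers were at 0.936 times (rab-3) and 0.984 times (snb-1). Between replicates of whole worms, fewer cells of a type and less RNA per cell cannot be told apart. The part of such differences between replicates in the lin-41 level was not tested.

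The nhl-1 gene (WBGene00003597, chromosome III) had 65 and 34 counts in the IPs, against 220 and 202 counts in the inputs. Both IPs lay below both inputs. The IP enrichment was -0.72 and -1.15, a mean of -0.94 ± 0.31 (SD, n = 2), and in edgeR the mRNA was at -1.35 on the log2 scale, with a standard error of 0.23 and an adjusted p of 7.51e-09. It was the least abundant of the 5 mRNAs and the one with the widest spread between replicates. All 10 alternative fits called nhl-1 depleted, with log2 fold changes from -2.28 to -1.04. Without IP replicate 2, the library with its lowest count, the adjusted p was 0.0142, the largest of these fits (edgeR without the block). A gene on the opposite strand, ZK512.8, overlaps nhl-1 in the later WBcel235 annotation and had 31 and 23 counts in the IPs and 125 and 120 in the inputs. The libraries were stranded, but no source used here says whether the counting used the strand, so a contribution of one gene to the other's count was not tested.

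For nhl-2 (WBGene00003598, chromosome III) the IPs held 3259 and 3167 counts and the inputs 2907 and 4160. The raw counts of IP and input overlapped. TMM scaling, with factors of 0.779 and 0.672 in the IPs and 1.43 and 1.34 in the inputs, gave 106 and 116 CPM in the IPs and 60.9 and 79.9 CPM in the inputs, without overlap. The log2 fold change was 0.67 (standard error 0.10, adjusted p = 2.01e-10). After quantile normalization the IP enrichment was near 0, at 0.21 in replicate 1 and -0.024 in replicate 2, a mean of 0.10 ± 0.17 (SD, n = 2).

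The gene ncl-1 (WBGene00003559, chromosome III) was similar to nhl-2, with 5935 and 5401 counts in the IPs, against 4435 and 5928 in the inputs. The abundance of ncl-1 mRNA was 193 and 197 CPM in the IPs, compared with 92.9 and 114 CPM in the inputs. Its log2 fold change was 0.92 (standard error 0.11, adjusted p = 7.63e-17), and its IP enrichment after quantile normalization was 0.31 and 0.08, a mean of 0.20 ± 0.16 (SD, n = 2). The IPs lay above the inputs on this scale, whereas the raw counts overlapped. In the later WBcel235 annotation ncl-1 overlaps 2 genes on the opposite strand, of which ZK112.4 had no counts and WBGene00022661 had at most 13.

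The remaining paralog, nhl-3 (WBGene00003599, chromosome II), had 281 and 226 counts in the IPs and 398 and 415 in the inputs. Its CPM of 9.15 and 8.25 in the IPs and 8.34 and 7.97 in the inputs overlapped. The difference did not pass the test (log2 fold change 0.09, standard error 0.15, adjusted p = 0.599). The IP enrichment after quantile normalization was 0.30 and 0.28, a mean of 0.29 ± 0.017 (SD, n = 2), which lay above the median of -0.11 over the tested genes.

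**Figure D2:**
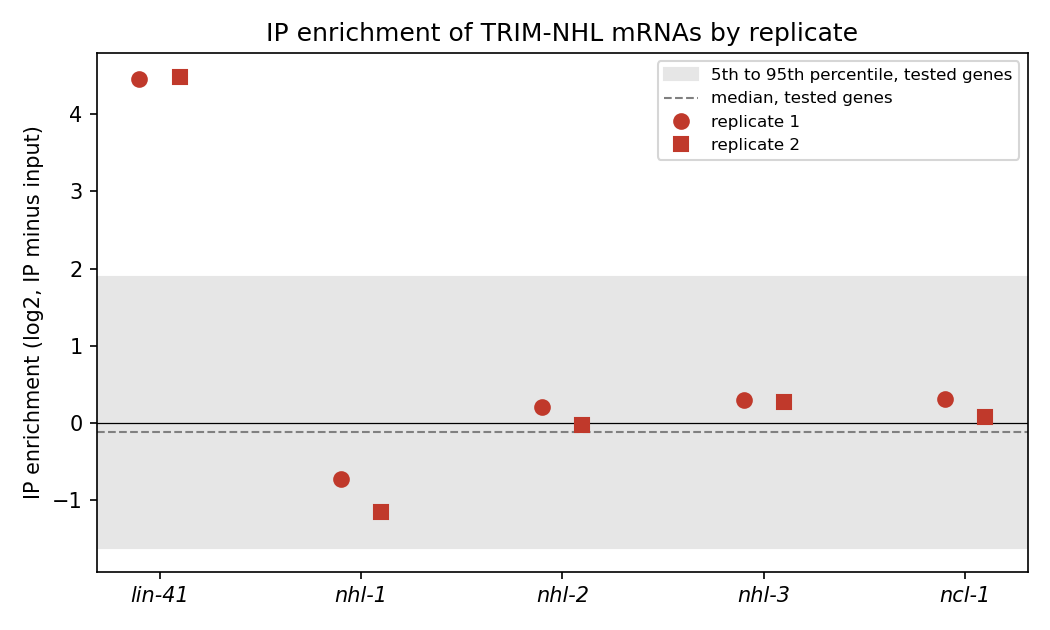
Log2 IP enrichment (IP minus input of the same replicate, quantile-normalized) of the 5 mRNAs, with circles for replicate 1 and squares for replicate 2; the grey band spans the 5th to 95th percentile of the 14029 tested genes (-1.62 to 1.89) and the dashed line is their median (-0.11). Only the lin-41 points, at 4.45 and 4.49, lie outside the band.

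The signs of the small changes depended on how the libraries were scaled. Over the tested genes, the log2 fold change had a median of -0.14 under TMM and of -1.07 when only library size was used. In that case nhl-2 was at -0.27 (adjusted p = 0.137) and ncl-1 at -0.01 (adjusted p = 0.962), so that neither was called by edgeR, and nhl-3 was called depleted at -0.84 (adjusted p = 1.72e-05). Over the 10 alternative fits the adjusted p ranged from 4.70e-09 to 0.137 for nhl-2, from 7.87e-16 to 0.962 for ncl-1 and from 1.72e-05 to 0.984 for nhl-3. Relative to the median of all tested genes, the log2 fold changes were 5.04 for lin-41, 1.06 for ncl-1, 0.80 for nhl-2, 0.23 for nhl-3 and -1.21 for nhl-1 with TMM. Scaled by library size only, these relative values were 5.03, 1.06, 0.80, 0.23 and -1.21 in the same order of genes. A change of scaling factors shifts all genes by nearly the same amount. The order of the 5 mRNAs and their distance from the median are thus fixed by construction, and only the position of 0 differs. Quantile normalization is not such a shift, and its mean IP enrichment placed nhl-3 (0.29) above ncl-1 (0.20) and nhl-2 (0.10).

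**Figure D3:**
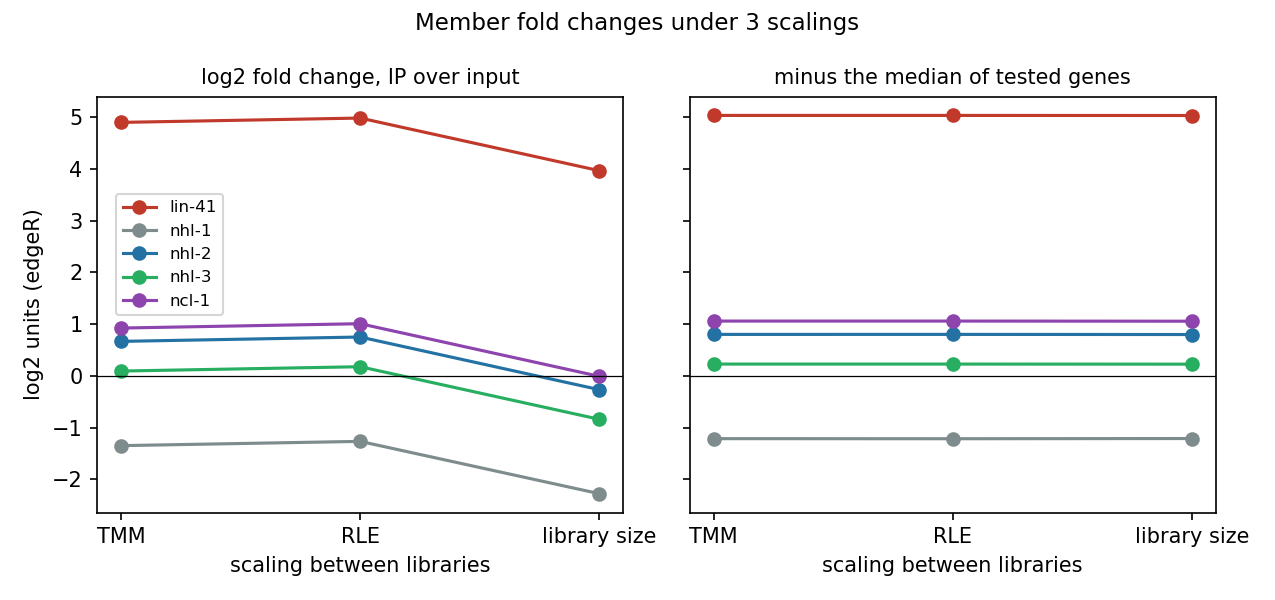
Log2 fold changes (IP over input, edgeR) of the 5 mRNAs with TMM, RLE and library size scaling (left), and the same values minus the median of the tested genes (right). With library size only, all lines drop, and nhl-2, nhl-3 and ncl-1 fall below 0, whereas relative to the median lin-41 stays at 5.03 to 5.04.

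A comparison between members of the family needs no scaling between libraries, because the ratio of 2 mRNAs is taken within each library. Counts of lin-41 made up 57.6% (95% Wilson interval 56.9% to 58.2%) and 49.3% (48.6% to 50.1%) of the counts of the 5 genes in the IPs, against 7.84% (7.29% to 8.42%) and 4.83% (4.45% to 5.24%) in the inputs. In the IPs there were 2.18 and 1.59 lin-41 counts for each ncl-1 count, against 0.153 and 0.0916 in the inputs. The corresponding odds ratio was 14.3 in replicate 1 (exact 95% interval 13.1 to 15.6) and 17.4 in replicate 2 (15.8 to 19.1). Relative to nhl-2, the odds ratio of lin-41 was 17.1 (15.6 to 18.7) and 20.8 (18.8 to 23.0). Relative to nhl-3 it was 27.1 (22.7 to 32.3) and 29.0 (24.1 to 35.1), and relative to nhl-1 it was 64.7 (48.3 to 87.6) and 93.8 (64.2 to 141). The intervals cover counting error only, and those relative to ncl-1 and nhl-2 did not overlap between the 2 replicates. Every one of these 8 intervals excluded 1, and the smallest lower bound was 13.1.

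**Figure D4:**
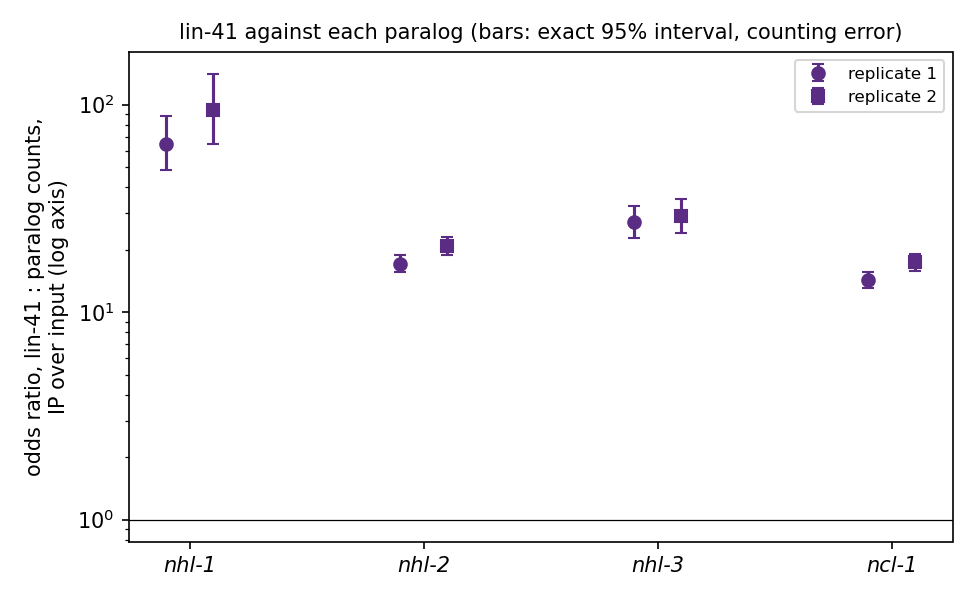
Odds ratio of lin-41 to paralog counts, IP over input (log axis), for each paralog and replicate; bars are exact 95% intervals for counting error, and the line at 1 marks equal recovery. The 8 points lie between 14.3 and 93.8, and no bar reaches 1.

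Averaged over its 4 paralogs, the log2 IP enrichment of lin-41 was higher by 4.43 in replicate 1 and by 4.69 in replicate 2, with a mean of 4.56 ± 0.19 (SD, n = 2). Against single paralogs the mean difference ranged from 4.18 ± 0.039 for nhl-3 to 5.41 ± 0.33 for nhl-1. With 2 replicates an exact sign-flip permutation test cannot give a p below 0.5, so no p is given for these differences.

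Among the paralogs themselves, nhl-1 stood apart and nhl-2 and ncl-1 lay close together. The odds ratio of nhl-1 to ncl-1 was 0.221 (exact 95% interval 0.164 to 0.293) in replicate 1 and 0.185 (0.124 to 0.267) in replicate 2, and that of nhl-1 to nhl-3 was 0.419 (0.300 to 0.579) and 0.309 (0.201 to 0.465). The mRNAs of nhl-3 and ncl-1 differed less, with odds ratios of 0.528 (0.449 to 0.619) and 0.598 (0.504 to 0.708). For nhl-2 to ncl-1 the ratios were 0.838 (0.786 to 0.893) and 0.836 (0.787 to 0.887), a small difference with nearly the same size in both replicates.

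Levels per length place these differences among the abundances of the mRNAs. As TMM-scaled CPM per kb of gene model (mean ± SD, n = 2), the order in the IPs was lin-41 at 96.0 (110 and 81.8 in replicates 1 and 2), ncl-1 at 44.3 ± 0.62, nhl-2 at 29.7 ± 1.8, nhl-3 at 3.95 ± 0.29 and nhl-1 at 0.520 ± 0.19. No neighbours in this order overlapped between replicates. In the inputs the order was ncl-1 at 23.5 ± 3.4, nhl-2 at 18.9 ± 3.6, nhl-3 at 3.70 ± 0.12, lin-41 at 3.21 ± 0.69 and nhl-1 at 1.32 ± 0.16. Here ncl-1 and nhl-2 overlapped, as did nhl-3 and lin-41. The input level of lin-41 was higher than that of 42.5% and 38.3% of the tested genes in replicates 1 and 2, and its IP level was higher than that of 88.4% and 84.6%. For ncl-1 these shares were 76.3% and 76.4% in the IPs and 69.7% and 71.9% in the inputs.

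The gene models that set these lengths differ from the later WBcel235 annotation, which was used for chromosomes and lengths only. For lin-41 the model used for counting has 3832 bases, whereas the longest coding sequence and the longest 3′-UTR of the later annotation add up to 4606 bases. For nhl-2 these values are 3735 and 4593 bases, and for ncl-1 4410 and 4700, and whether the counts cover the whole 3′-UTRs was not tested. Annotated 3′-UTRs were long in ncl-1 (1754 bases), nhl-2 (1497 bases) and lin-41 (1165 bases) and short in nhl-1 (211 bases) and nhl-3 (128 bases), compared with a median of 131 bases and a 90th percentile of 469 bases for the 16337 coding genes with an annotated 3′-UTR. A relation of these lengths to the enrichment was not tested.

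The genes with the pattern most like each member, by Euclidean distance over the 4 normalized log2 values among all tested genes, were named as a description. Nearest to lin-41 were esyt-2 at 0.86 log2 units, with counts of 7303 and 9127 in the IPs and 557 and 607 in the inputs, and F31A3.5 at 0.87 log2 units, with counts of 10367 and 12709 in the IPs and 503 and 654 in the inputs. No tested gene lay within 0.5 log2 units of lin-41. Both neighbours had more IP counts in replicate 2, and lin-41 had more in replicate 1. The other members had close neighbours, which were ttr-1 (0.13) and T07D4.2 (0.22) for nhl-1, catp-6 (0.12) and T25D3.4 (0.16) for nhl-2, plc-3 (0.16) and WBGene00021651 (0.19) for nhl-3, and C25A1.1 (0.07) and T13F2.6 (0.12) for ncl-1.

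None of the listed genes that are related to these proteins or act with them reached the log2 fold change of lin-41. Of 5 other genes for tripartite motif or NHL-repeat proteins, trim-21 had no counts. Among the other 4, pamn-1, a peptide-amidating enzyme with NHL-type repeats, was enriched (3.71 and 2.99 CPM in the IPs, 2.07 and 1.31 CPM in the inputs, adjusted p = 5.97e-05, edgeR), and pgal-1, a peptidylglycine-amidating lyase, was depleted (-0.50, adjusted p = 0.0058). The log2 fold changes of madd-2, the TRIM protein of ventral axon guidance, and arc-1 were -0.25 and -0.04 and did not pass the test. The median of the 4 was -0.15, close to the -0.14 of all tested genes, of which 32.9% were enriched and 35.4% depleted. Under library size scaling, pamn-1 was no longer called and the other 3 were called depleted, as were 9333 of the 14029 tested genes. Without the block, pgal-1 did not pass the test even with all 4 libraries (adjusted p = 0.106, edgeR), nor did it with DESeq2 (0.159), without input replicate 1 or without IP replicate 2. The call of pamn-1 held without the block (0.0061) and was lost without input replicate 2 (0.090) or IP replicate 1 (0.082), in edgeR fits that also have no block.

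Of 8 genes for proteins that act with NHL-2, 4 were enriched and 3 were depleted, where 32.9% and 35.4% of all tested genes were. A count of 8 genes cannot be set apart from these shares. The Argonautes alg-1 (log2 fold change 1.20) and alg-2 (0.42), the GW182-like cofactor ain-1 (0.38) and the nuclear Argonaute hrde-1 (0.46) were enriched, whereas ain-2 (-0.59), the helicase drh-3 (-0.75) and the Argonaute csr-1 (-0.97) were depleted. The helicase cgh-1, which binds NHL-2, was at 0.03 and did not pass the test (adjusted p = 0.871, edgeR). The median log2 fold change was 0.20 on the TMM scale, but the median IP enrichment after quantile normalization had the opposite sign, -0.62. By the latter measure alg-1 was at 0.86, whereas alg-2 (-0.13), ain-1 (-0.15), hrde-1 (-0.40) and cgh-1 (-0.85) lay below 0. The 3 depleted genes also lay below 0 (ain-2 -1.13, drh-3 -1.25, csr-1 -1.69). The median over all tested genes was -0.11. When scaled by library size only, none of the 8 was enriched and 7 were depleted. With that scaling, 1670 of the 14029 tested genes were enriched and 9333 were depleted. Without input replicate 1, 1 of the 8 was enriched.

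The ubiquitin-conjugating enzymes that serve RING ligases gave no enriched gene among 4. For this list and the nucleolar genes below, the shares over all tested genes were 32.9% enriched and 35.4% depleted. The log2 fold change was -1.14 for ubc-1, -0.77 for ubc-13 and -0.43 for let-70, which were depleted. It was 0.00 for uev-1, which did not pass the test. By quantile-normalized IP enrichment all were below input, at -1.05 for ubc-1, -1.49 for ubc-13, -1.23 for let-70 and -0.79 for uev-1. Without input replicate 1 (adjusted p = 0.085, edgeR) or input replicate 2 (0.218) let-70 was not called, which left 2 of 4. Among 5 nucleolar genes, fib-1, the fibrillarin gene whose product NCL-1 restrains, was enriched by 1.18 on the log2 scale (standard error 0.16, adjusted p = 2.40e-13, edgeR), from 43070 and 41263 counts in the IPs and 30152 and 33743 in the inputs. The nucleolar genes dao-5 (-0.63) and nst-1 (-0.29) were depleted, while nol-56 (-0.26) and nol-58 (-0.12) did not pass the test. Quantile-normalized IP enrichment was 0.48 for fib-1, -1.36 for dao-5, -1.07 for nst-1, -1.11 for nol-56 and -0.95 for nol-58. The median over all tested genes was -0.11 on that measure. Under library size scaling, which called 9333 of the 14029 tested genes depleted, fib-1 was at 0.25 and was not called (adjusted p = 0.242, edgeR). The number depleted was 1 of 5 with DESeq2, with RLE size factors, with no block and without input replicate 1 or input replicate 2, and nst-1 was at an adjusted p of 0.058 with no block (edgeR). It was 3 of 5 with no filter, with at least 10 counts in every library and without IP replicate 1, and 4 of 5 with library size only.

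All 5 genes for proteins found with CeLIN41 in oocyte ribonucleoprotein particles were enriched on the TMM scale, where 32.9% of all tested genes were. The log2 fold change was 2.35 for oma-2, 1.20 for rnp-8, 1.04 for oma-1, 0.90 for gld-3 and 0.31 for gld-2, with a median of 1.04 compared with -0.14 for all tested genes. After quantile normalization the IP enrichment was 1.67 for oma-2, 0.41 for rnp-8, 0.16 for oma-1, 0.02 for gld-3 and -0.40 for gld-2. The median was 0.16, compared with -0.11 for all tested genes. OMA-1 and OMA-2 are zinc finger proteins of maturing oocytes, and GLD-2 is a cytoplasmic poly(A) polymerase that acts with GLD-3 or RNP-8. The call of gld-2 was lost without input replicate 1 (adjusted p = 0.268, edgeR) or IP replicate 2 (0.149), which left 4 of 5. Under library size scaling, oma-2 alone was enriched, and gld-2 was depleted at -0.62. With that scaling, 1670 of the 14029 tested genes were enriched and 9333 were depleted. All 3 oocyte markers were also enriched on the TMM scale, with a median log2 fold change of 1.04. After quantile normalization, rme-2 was at 0.26 and puf-5 at -0.09. The 3 intestine markers were depleted with a median log2 fold change of -0.96, where 35.4% of all tested genes were depleted. The partner and oocyte marker lists share oma-1, whose value is the median of both, so the equal medians are 1 value. Under library size scaling none of the oocyte markers was called enriched, and puf-5 was not called without input replicate 1. The intestine marker ges-1 was not called with DESeq2, RLE size factors or no block, or without input replicate 1, IP replicate 1 or IP replicate 2 (adjusted p from 0.073 to 0.894), which left 2 of 3 depleted. The part of this tissue difference in the values of these partner genes, or in those of nhl-2 and ncl-1, was not tested. The log2 fold change of lin-41 was 4.90, compared with 2.35 for oma-2, the highest of the other listed family and partner genes, and 2.49 for the neuronal marker rab-3.

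**Figure D5:**
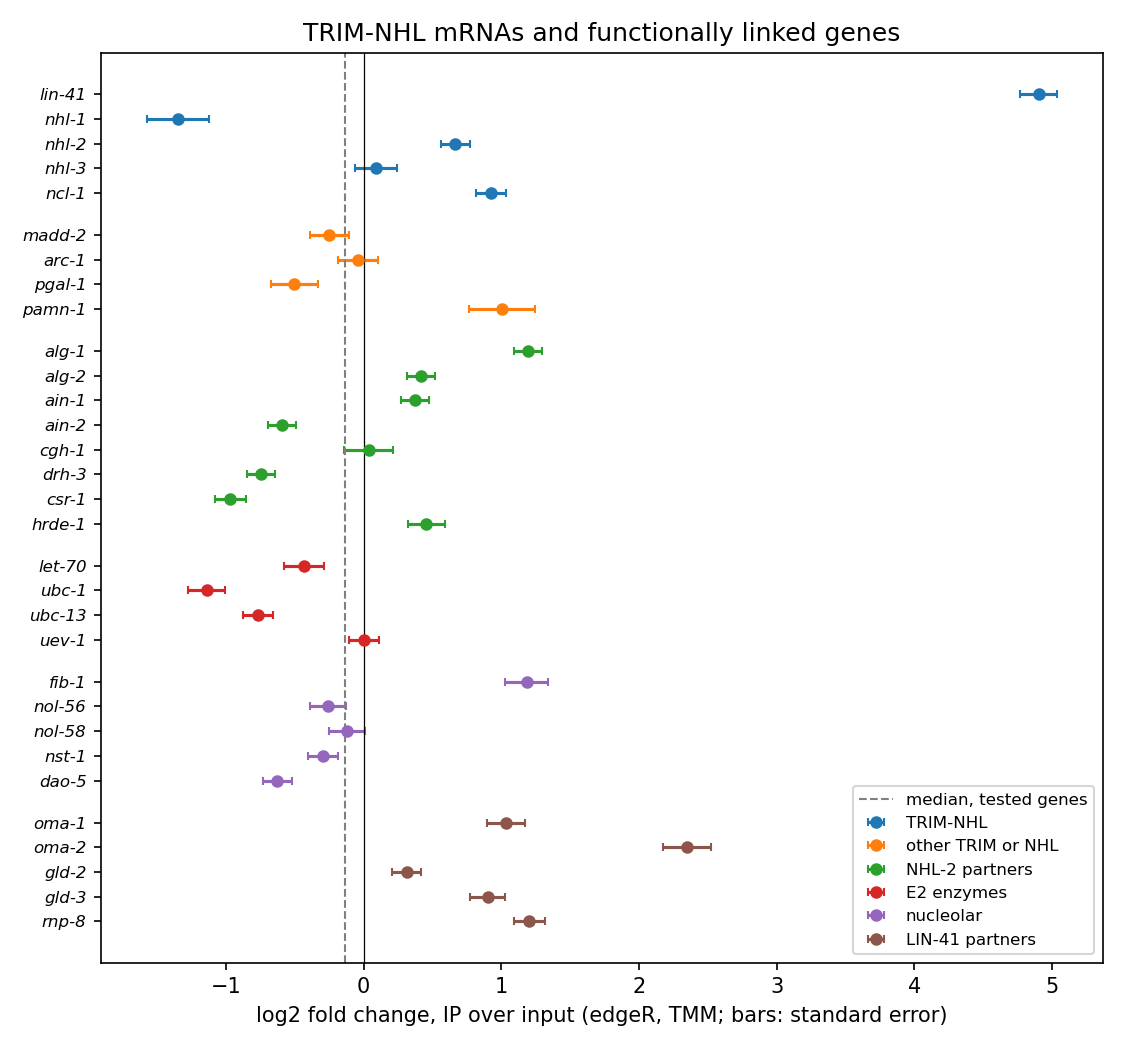
Log2 fold change (IP over input, edgeR with TMM, bars are standard errors derived from the F statistic) of the TRIM-NHL mRNAs and of the listed partner genes, coloured by list; the dashed line is the median of the tested genes (-0.14). The lin-41 point at 4.90 lies to the right of all others, the next being oma-2 at 2.35, and nhl-1 at -1.35 is the lowest.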

How the data were processed

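The deposited counts are unnormalized whole numbers of reads for each WS220 gene model (assembly ce10), given with model lengths. The log2 values deposited by the authors were scaled for library size, given a pseudocount of 8 and quantile-normalized. They were made with an aligner, counter and multi-mapping rule not given in the sources used here. None of the 81568 values recomputed from the counts differed from the deposited ones by more than 1e-06. edgeR 4.0.16 in R 4.3.3 was fitted to all genes passing filterByExpr, with TMM factors and the replicate as a block. Standard errors were derived from the fold change and the F statistic. Pairing follows the study, which subtracted from each IP its own input, and the replicate differences of IP and input correlated at r = 0.393 across 14029 genes. Alternatives were DESeq2 1.42.0, other scalings, filters and pseudocounts, no block, and each library or replicate left out. Python 3.11.15, scipy 1.17.1 and matplotlib 3.10.9 were used for ratios, intervals and figures, and Ensembl release 115 (WBcel235) for lengths and strands (19870 of 20392 identifiers). Coordinates and sequences are not given. The steps were tested on simulated data. Named genes are the 5 members, the listed partner and marker genes, and, for members with at least 10 counts in every library, the 2 nearest tested genes by pattern. Members and lists were chosen with earlier results of these data known.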

Additional observations from a re-analysis of the deposited data

How the results depend on the processing

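TMM and library size place 0 differently, and quantile normalization also changed the order of nhl-2, nhl-3 and ncl-1, which limits the small changes. The result for nhl-1 is limited by its depth of 34 counts in 1 IP. With library size only, 1670 genes were enriched and 9333 depleted, and DESeq2 gave 3294 depleted genes, compared with 4611 and 4960. The log2 fold changes of nhl-2, nhl-3 and ncl-1 turned to -0.27, -0.84 and -0.0096 with library size only. With DESeq2 they were 0.75, 0.18 and 1.01. Log2 IP enrichments with library size only were 3.95 for lin-41, -2.12 for nhl-1, -0.27 for nhl-2, -0.82 for nhl-3 and -0.0091 for ncl-1. With TMM factors they were 4.88, -1.28, 0.67, 0.090 and 0.92 in the same order. A pseudocount of 1 gave 4.49 for lin-41. The excess of lin-41 over its paralogs was 4.76 with library size only and 4.78 with TMM factors. These values are nearly equal by construction, because a scaling factor cancels between genes of a library apart from the pseudocount. With quantile normalization the excess was 4.56. Without replicate 1 or 2 the log2 IP enrichment ranged from 4.45 to 4.49 for lin-41, from -1.15 to -0.72 for nhl-1, from -0.024 to 0.21 for nhl-2, from 0.28 to 0.30 for nhl-3, from 0.08 to 0.31 for ncl-1, and from 4.43 to 4.69 for the excess of lin-41.

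Without 1 library at a time (edgeR, no block), 3814 to 4122 genes were enriched and 3445 to 3850 depleted. The log2 fold change ranged from 4.67 to 5.14 for lin-41, from -1.77 to -1.04 for nhl-1, from 0.48 to 0.87 for nhl-2, from 0.02 to 0.13 for nhl-3 and from 0.78 to 1.08 for ncl-1, with no call changed. With no replicate block, the fold changes of the 5 mRNAs were 4.90, -1.33, 0.65, 0.09 and 0.92 for lin-41, nhl-1, nhl-2, nhl-3 and ncl-1, and no call of a member changed.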
